A study of Oryza sativa Japonica Group with 4 samples.

Results

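Chromatin immunoprecipitation followed by sequencing located lysine crotonylation in Nipponbare, a japonica rice cultivar, and 2991 of the 10923 regions found with a pan anti-crotonyllysine antibody (Kcr) lay apart from the second mark of the study. A region entered this set when it was at most 2000 bp wide, shared no base with a region of crotonylated lysine 14 of histone H3 (H3K14cr), and lay more than 2000 bp from the nearest H3K14cr region on its chromosome. Such regions are called isolated below, a word that refers to H3K14cr alone. Both marks came from seedlings of this cultivar, with no treatment named in the labels, germinated for 72 h and grown in water in a greenhouse for sampling at 2 weeks, and the material was described as mainly leaf with some stem. Each antibody was used on 2 replicate libraries. A mock precipitation with normal rabbit serum was described and is not analysed here.

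Crotonylation adds a short, rigid acyl group, donated by crotonyl-CoA, to the side chain of lysine and removes its positive charge. In mammalian cells it is written by acetyltransferases such as p300, is bound by YEATS-domain proteins, and marks promoters and enhancers of active genes. H3K14 lies in the amino-terminal tail of histone H3 and is also a site of acetylation. A pan antibody is raised against crotonyllysine itself and can in principle bind the modification at other histone lysines as well, whereas the H3K14cr antibody is directed at 1 residue. The comparison of the lists addresses how far the pan-Kcr pattern is seen with an antibody against a single site, and the isolated regions are the Kcr regions for which no H3K14cr region was near. Whether the antibodies bind other modifications was not examined.

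The data are 1 list of enriched regions per mark, with a chromosome, a start and an end for each region. Each list stands for both replicates of its mark, so no value per replicate, read number, score or p-value was at hand and the depth is unknown. Absence of an H3K14cr region therefore means absence from that list, and a weak signal below the authors' threshold cannot be told apart from none. The rule that defines the isolated regions uses their width and their distance from H3K14cr, and those values are given as a description. All intervals are 95% intervals that cover counting error only, and no test was made. Positions are printed as deposited. No genome or annotation of the same build was at hand, so neither the sequence under the regions nor the genes beside them could be described, and each region is given by its position.

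The size of the isolated set depends on the limits of the rule and on which regions are listed. With the limits given above it made up 27.4% of the Kcr list (Wilson interval 26.6 to 28.2%), against 18.2% with a distance limit of 5000 bp and 46.9% in the wider 50% of each list. In that last setting the narrower H3K14cr regions were dropped, so Kcr regions at or near them could count as isolated. With the full lists and the limits given above, the isolated set made up 75.9% (74.6 to 77.2%) of the 3940 Kcr regions without an H3K14cr overlap. The isolated regions covered 3.38 Mb, which was 23.1% of all bases in the Kcr list and 0.906% of the span of 373.0 Mb. The Kcr regions left out of the set comprised 6126 regions of at most 2000 bp that overlapped H3K14cr, 778 of at most 2000 bp that lay beside H3K14cr within 2000 bp, and 1028 that were wider than 2000 bp. Of these wide regions, 135, or 13.1% (11.2 to 15.3%), lay more than 2000 bp from H3K14cr. The same rule with the lists exchanged gave 6705 H3K14cr regions of at most 2000 bp far from any Kcr region. They were 35.6% (35.0 to 36.3%) of the 18813 H3K14cr regions. The width limit keeps 66.2% of the H3K14cr list. Among regions of at most 2000 bp, the isolated share was 53.9% (53.0 to 54.8%) for H3K14cr and 30.2% (29.3 to 31.1%) for Kcr. These shares are taken against lists of unlike size, 10923 Kcr and 18813 H3K14cr regions, so they are not directly comparable.

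The distance limit did not coincide with a break in the number of regions. Between 1500 and 2000 bp from H3K14cr there were 186 Kcr regions of at most 2000 bp, and between 2000 and 2500 bp there were 208. The members nearest to the limit lay 2001 bp from H3K14cr (chromosome 8, 7322217 to 7323041), 2002 bp (chromosome 5, 289993 to 291046) and 2003 bp (chromosome 9, 16470889 to 16471765). The nearest regions on the other side lay 1998 bp from H3K14cr on chromosome 1 (25926095 to 25927128), 1998 bp on chromosome 8 (35786 to 37006) and 1993 bp on chromosome 5 (25270983 to 25272192). The widest members had 1994 bp, and the narrowest regions kept out by width alone had 2005, 2007 and 2012 bp.

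Isolated regions were narrow. Their median width was 1082 bp (interval of the median 1070 to 1092 bp), with quartiles at 949 and 1271.5 bp and a range of 376 to 1994 bp. Regions beside H3K14cr had nearly the same widths, with a median of 1099 bp (1074 to 1127 bp). Kcr regions of at most 2000 bp that overlapped H3K14cr had a median of 1221 bp (1212 to 1231 bp). The difference between the isolated and the overlapping medians was -139 bp. It was below 0 on 12 of 12 chromosomes, with extremes of -186.5 bp on chromosome 9 and -111 bp on chromosome 6.

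Width and the overlap with H3K14cr both entered the rule, and a wider region meets H3K14cr more readily by geometry alone, so these widths are a description. Among regions without an overlap, the median widths were close to each other at all distances up to 50 kb. In steps of 500 bp from the H3K14cr edge out to 5000 bp, the median width of non-overlapping regions stayed between 1049 and 1141 bp. Farther out, it was 1084 bp at 5 to 10 kb (n = 929), 1094 bp at 10 to 20 kb (n = 725) and 1057.5 bp at 20 to 50 kb (n = 316). The 20 regions beyond 50 kb had a median of 1002.5 bp, with an interval of 893 to 1100 bp. Across the 2991 members, distance from H3K14cr and width were all but unrelated, with a Spearman's rho of -0.04.

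**Figure D1:**
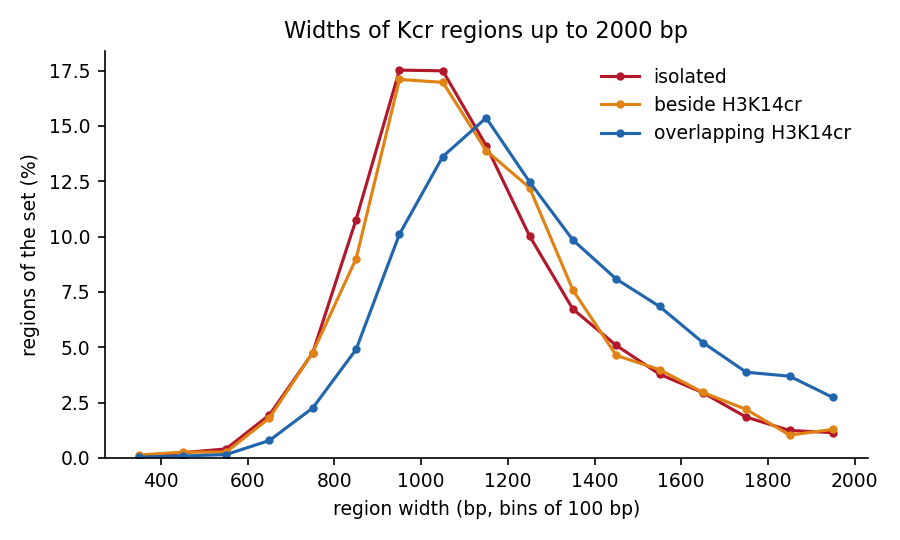
Share of regions (y axis, % of each set) by region width (x axis, bp, bins of 100 bp) for isolated Kcr regions (n = 2991), Kcr regions beside H3K14cr (n = 778) and Kcr regions overlapping H3K14cr (n = 6126), all at most 2000 bp wide. The curves of the isolated and the beside sets run together, with medians of 1082 and 1099 bp, and the overlapping set is displaced to larger widths, with a median of 1221 bp.

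The share of isolated regions in each width class is likewise a description, since the rule used both width and distance. Up to 1000 bp they were 1066 of 2446 Kcr regions, or 43.6% (41.6 to 45.6%). Between 1000 and 1500 bp the share was 28.2% (27.1 to 29.4%), and between 1500 and 2000 bp it was 18.3% (16.6 to 20.2%). Overlapping regions made up 45.8%, 64.2% and 76.7% of these width classes. The narrowest members were found on chromosome 12 at 20604500 to 20604876 (376 bp), on chromosome 2 at 14283785 to 14284210 (425 bp) and on chromosome 8 at 22325538 to 22325967 (429 bp). The second of these also stood alone, with no region of either mark inside 50 kb of its midpoint. The widest members lay on chromosome 2 at 26977483 to 26979477 (1994 bp), on chromosome 7 at 19462231 to 19464225 (1994 bp) and on chromosome 3 at 27955095 to 27957066 (1971 bp). All 3 had an H3K14cr region between 6650 and 6805 bp away.

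Isolated regions lay at a wide range of distances from H3K14cr. The median distance to the nearest H3K14cr edge was 7082 bp (6798 to 7342 bp), with quartiles at 4197 and 12814.5 bp. Distances over 5 kb were seen for 1990 members (66.5%), over 20 kb for 336 (11.2%) and over 50 kb for 20 (0.669%, interval 0.433 to 1.03%). The nearest H3K14cr region lay at a lower coordinate for 1504 members and at a higher one for the rest, a share of 50.3% (48.5 to 52.1%), so neither side prevailed. For the H3K14cr regions chosen by the same rule, the median distance to the nearest Kcr region was larger, at 13271 bp, beside a Kcr list with fewer regions.

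The member farthest from H3K14cr, at 145551 bp, was the last Kcr region of chromosome 5 (29907338 to 29908374, 1036 bp), beyond the last H3K14cr region of that chromosome. Its nearest Kcr neighbour was 101966 bp away. On chromosome 11 a region of 1466 bp (12076664 to 12078130) lay 92235 bp from H3K14cr and 86262 bp from another Kcr region. On chromosome 1 a region of 996 bp (19691681 to 19692677) lay 89311 bp from H3K14cr and had another Kcr region 9109 bp away. The first and second of these regions were far from both marks, and the third was not.

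The H3K14cr region nearest to an isolated Kcr region is described next by its own overlap with Kcr and its width. It overlapped another Kcr region in 1089 of 2991 cases, or 36.4% (34.7 to 38.2%), against 37.1% (36.4 to 37.8%) of all H3K14cr regions. Its median width was 1680 bp (1646 to 1724 bp), against 1621 bp (1608 to 1635 bp) in the whole H3K14cr list. The Kcr regions beside H3K14cr differed in this respect. Their nearest H3K14cr region overlapped another Kcr region in 101 of 778 cases, or 13.0% (10.8 to 15.5%), and had a median width of 1979 bp (1892 to 2103 bp). That H3K14cr region is close to the beside region by definition, so the 13.0% is limited by how closely Kcr regions are spaced. Only 23.0% (20.2 to 26.1%) of beside regions had another Kcr region within 5 kb.

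Taken as a whole, isolated regions were not isolated from other Kcr regions. The nearest other Kcr region lay at a median of 10702 bp (10168 to 11262 bp) from an isolated region, against 10473 bp (10099 to 10786 bp) from a Kcr region overlapping H3K14cr, and these intervals overlap. The difference of 229 bp had no constant sign, being below 0 on 5 of 12 chromosomes, with a range of -1155.5 bp on chromosome 5 to 2078 bp on chromosome 8. With a limit of 5000 bp from H3K14cr in place of 2000 bp it was 1816 bp. A neighbour within 50 kb was found for 2851 members, or 95.3% (94.5 to 96.0%), and for 94.9% (94.3 to 95.4%) of overlapping regions. Both sets had a median of 3 other Kcr regions within 50 kb of the midpoint. H3K14cr regions in the same neighbourhood had a median of 5 around isolated regions and 6 around overlapping ones, a difference to which the rule itself contributes.

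At short range the share of isolated regions with a Kcr neighbour was small. Another Kcr region within 2 kb was found for 76 members, or 2.54% (2.03 to 3.17%), against 5.01% (4.49 to 5.59%) of overlapping regions and 10.8% (8.81 to 13.2%) of regions beside H3K14cr. The rule contributes to this contrast, because it keeps H3K14cr, which most Kcr regions overlap, more than 2000 bp from a member. The closest pair of members, on chromosome 3 at 33401535 to 33402459 and at 33402461 to 33403351, was separated by 2 bp. At the other extreme, a member of 910 bp on chromosome 4 (10471829 to 10472739) was 321207 bp from any other Kcr region and only 2175 bp from H3K14cr. Members on chromosome 6 (10175929 to 10176677) and chromosome 10 (10635289 to 10636376) had their nearest other Kcr region 198718 and 175497 bp away, and H3K14cr at 23789 and 2634 bp. Distance from Kcr and distance from H3K14cr were weakly related across members (Spearman's rho 0.28). The median distance to other Kcr was 8135 bp (7287 to 8884 bp) for members 2 to 5 kb from H3K14cr. It was 13623 bp (12832 to 14443 bp) at 10 to 20 kb and 20492.5 bp (18063 to 22906 bp) at 20 to 50 kb. Most Kcr regions overlap H3K14cr, so both distances are linked.

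**Figure D2:**
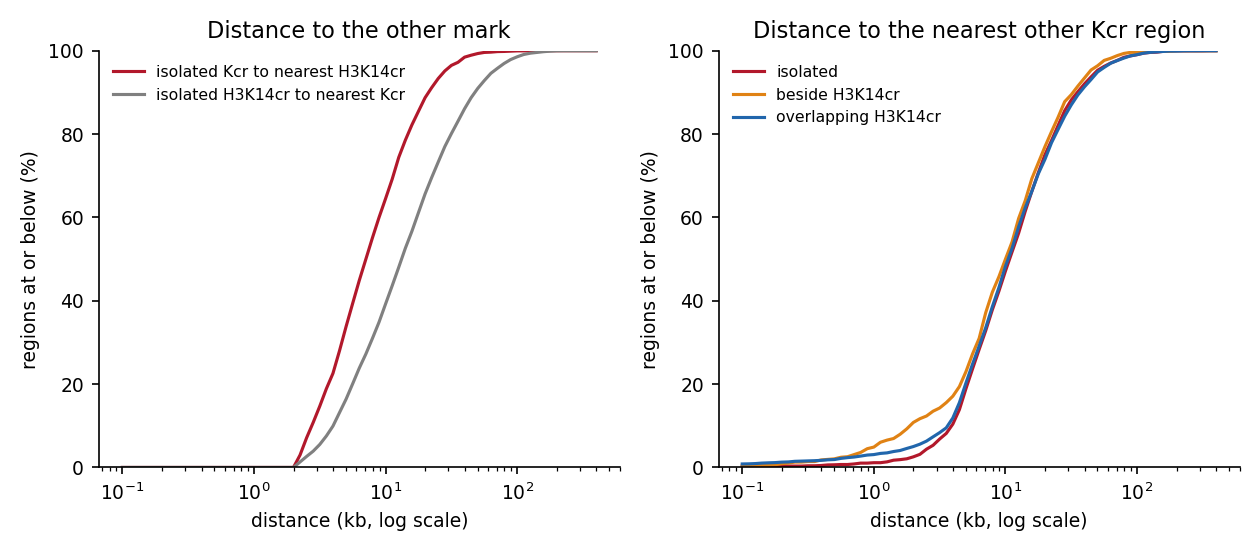
Cumulative share of regions (y axes, %) by distance (x axes, kb, log scale). Left, isolated Kcr regions to the nearest H3K14cr region and, in grey, H3K14cr regions chosen by the same rule to the nearest Kcr region, both starting at the limit of the rule. Right, distance to the nearest other Kcr region for isolated, beside and overlapping Kcr regions, where the isolated and overlapping curves nearly coincide above 5 kb, with medians of 10702 and 10473 bp.

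The neighbours of isolated regions in the order of the Kcr list were mostly regions with H3K14cr, and a part was isolated too. Of the Kcr regions flanking an isolated region, 31.1% (29.9 to 32.3%) were themselves isolated, against 26.1% (25.3 to 26.9%) of those flanking a region that overlapped H3K14cr. Each adjacent isolated pair counts from both sides in the first share, so its interval is too narrow. Both flanking regions were isolated for 310 members, or 10.4% (9.34 to 11.5%), against 6.81% (6.20 to 7.47%) of overlapping regions. Regions that overlapped H3K14cr made up 60.2% of the flanks of isolated regions. Neither flanking region was isolated for 48.3% (46.5 to 50.1%) of members, against 54.6% (53.4 to 55.9%) of overlapping regions. Runs of at least 2 consecutive isolated regions numbered 619 and held 1548 members, or 51.8%. A member enters such a run through either flank, so the 51.8% cannot be set against the 27.4% of the Kcr list that was isolated. Whether the runs exceed those of a random order was not tested. Of these runs, 301 contained no H3K14cr region between their first and last member. The remaining 1443 members stood as single isolated regions in the order of the Kcr list.

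The longest run held 10 isolated regions over 143.602 kb of chromosome 11 (3513894 to 3657496). These regions were 727 to 1367 bp wide, lay 2008 to 62323 bp from H3K14cr, and enclosed 1 H3K14cr region. A run of 8 on chromosome 6 (21349151 to 21703655) spanned 354.504 kb with 8 H3K14cr regions between its members. Its first member was separated from the second by 220190 bp. Of the 2 runs of 7, the shorter was near the end of chromosome 7 (29173945 to 29304752, 130.807 kb, 4 H3K14cr regions inside), and the longer was on chromosome 11 (26312229 to 26508021, 195.792 kb, 5 H3K14cr regions inside). Among these 4 runs, the one of 10 held the fewest H3K14cr regions.

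The space away from H3K14cr was large and thinly occupied by Kcr. Bases more than 2000 bp from any H3K14cr region made up 267.6 Mb, or 71.7% of the span, and held 11.2 isolated regions per Mb (Poisson interval 10.8 to 11.6). The remaining 105.4 Mb, in and around the H3K14cr regions, held 7797 Kcr regions of any width, or 74.0 per Mb. Counted at any width, the far space held 3126 Kcr regions, or 11.7 per Mb. The ratio of the density of isolated regions to that in the remaining space was 0.151. It depends on where the border is drawn, and was 0.0588 when only an overlap of 50% of the Kcr region counted as shared and no distance was required.

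Gaps between neighbouring H3K14cr regions were long enough to hold a member with 2000 bp to spare on both sides only above 4 kb. Of 15961 such gaps, 2441, or 15.3%, held at least 1 isolated Kcr region. A single member was found in 2014 of them and 2 members in 340, and the fullest gap held 8. Gaps with a member had a median length of 27633 bp, against 12416.5 bp for those without. The share of occupied gaps was 2.10% (1.76 to 2.52%) at 4 to 10 kb, 13.7% (12.7 to 14.7%) at 10 to 20 kb, 26.7% (25.4 to 28.0%) at 20 to 50 kb and 41.6% (38.6 to 44.7%) at 50 to 100 kb. It was 41.04% (34.0 to 48.5%) in the 173 gaps over 100 kb.

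Relative to their length, gaps over 100 kb held the fewest members of the 5 length classes. Members per Mb of room, taken as the gap without its outer 2000 bp at each side, were 7.81 at 4 to 10 kb, 13.9 at 10 to 20 kb, 12.1 at 20 to 50 kb, 10.1 at 50 to 100 kb and 5.21 above 100 kb. Counted over the positions at which a region of the median width could start, the density in the shortest class was 12.1 per Mb and that above 100 kb was 5.25 per Mb. Within a gap, members were spread almost evenly. With the available room folded about its middle into 5 equal parts, the outermost part held 21.5% (20.1 to 23.0%) of 2983 members and the innermost 20.1% (18.7 to 21.6%), and the parts between held 18.9 to 19.9%.

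**Figure D3:**
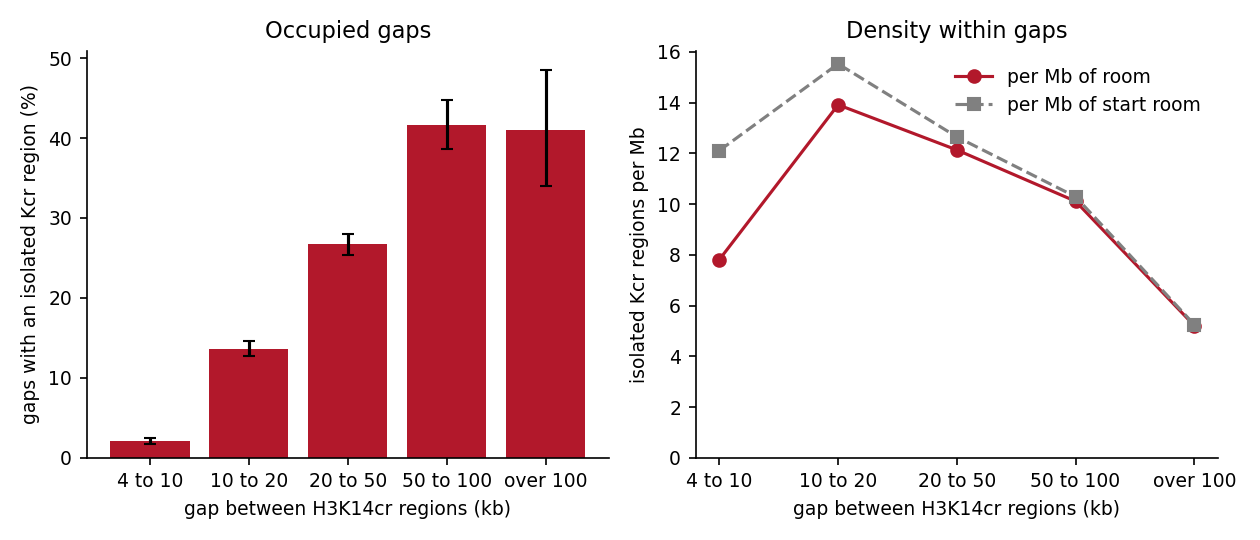
Isolated Kcr regions in gaps between neighbouring H3K14cr regions, by gap length (x axes, kb). Left, share of gaps with at least 1 isolated region (y axis, %, bars with 95% Wilson intervals), which climbs to 41.6% at 50 to 100 kb. Right, isolated regions per Mb of room and per Mb of possible start positions (y axis), which peak at 13.9 and 15.5 per Mb at 10 to 20 kb and are lowest above 100 kb, at 5.21 and 5.25 per Mb.

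Isolated regions occurred on each of the 12 chromosomes, at 6.12 per Mb on chromosome 10 to 10.1 per Mb on chromosome 3. The lowest share of a chromosome's Kcr regions was 23.6% (20.4 to 27.1%), on chromosome 10, and the highest was 33.8% (30.7 to 37.1%), on chromosome 7. Chromosome 7 was the single chromosome whose interval lay wholly above that of the whole list (26.6 to 28.2%). It held 288 isolated regions among 851 Kcr regions, and 74.6% of its span was more than 2000 bp from H3K14cr. Chromosome 11, with 74.7% of its span that far from H3K14cr, had a share of 28.1% (24.9 to 31.5%). Per Mb of this far space, isolated regions were densest on chromosome 3 (15.0 per Mb), followed by chromosome 2 (14.4), chromosome 1 (13.2) and chromosome 7 (13.0), and sparsest on chromosome 10 (8.29) and chromosome 4 (8.77).

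**Figure D4:**
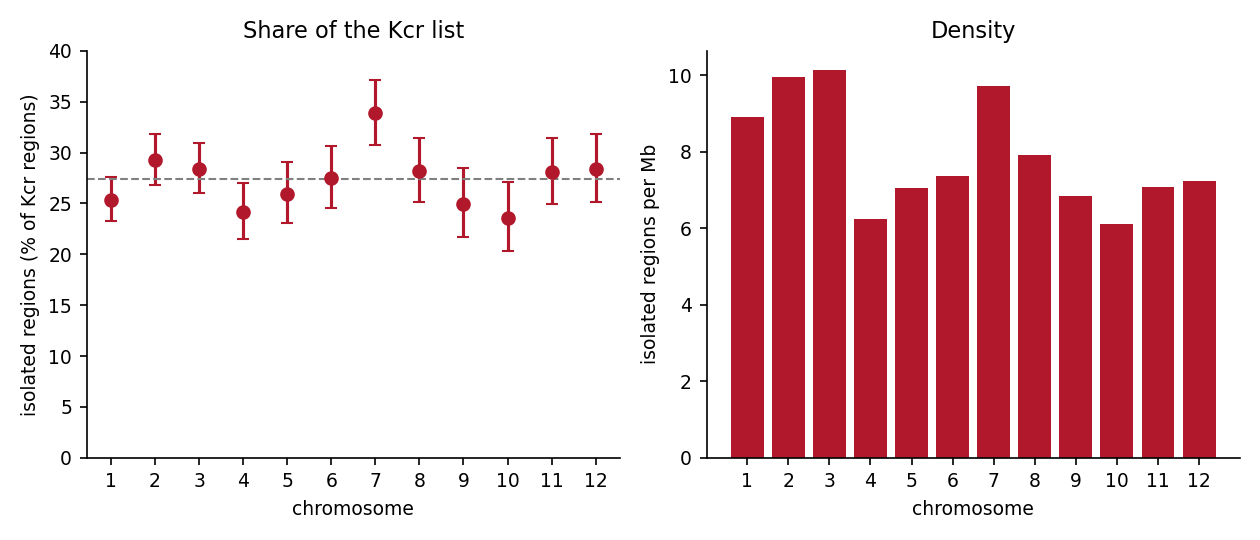
Isolated Kcr regions by chromosome (x axes). Left, share of the chromosome's Kcr regions (y axis, %) with 95% Wilson intervals and the share of the whole list, 27.4%, as a dashed line, where chromosome 7 stands at 33.8%. Right, isolated regions per Mb (bars, from 0), with chromosome 3 the densest at 10.1 and chromosome 10 the sparsest at 6.12.

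Along the chromosomes isolated regions thinned out away from the ends. In the first and last full 1 Mb windows of the chromosomes there were 12.3 ± 5.0 isolated regions (SD, n = 24 windows), against 7.60 ± 3.86 in the other full windows (n = 343 windows), a ratio of 1.62. For the Kcr regions outside the set the ratio was 1.44, and for H3K14cr it was 1.07. The windows are neighbours on chromosomes and not replicates. The share of Kcr regions that were isolated was 29.7% (26.9 to 32.6%) in the end windows and 27.2% (26.3 to 28.1%) elsewhere, and these intervals overlap. Values in the end windows ranged from 1, at the start of chromosome 10, to 27, at the end of chromosome 3, so the spread between ends was wide.

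The decline from the ends went on for several Mb. Isolated regions averaged 12.3 per window in the outermost full windows, 9.50 in the second and 10.6 in the third, then 8.98, 7.94 and 6.67 at 3 to 5, 5 to 7 and 7 to 9 Mb. They averaged 6.36 at 9 to 12 Mb and 6.73 farther in. The share of Kcr regions that were isolated was highest at 2 to 3 Mb, at 31.6% (28.5 to 34.9%), and lowest at 7 to 9 Mb, at 24.8% (22.6 to 27.3%).

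**Figure D5:**
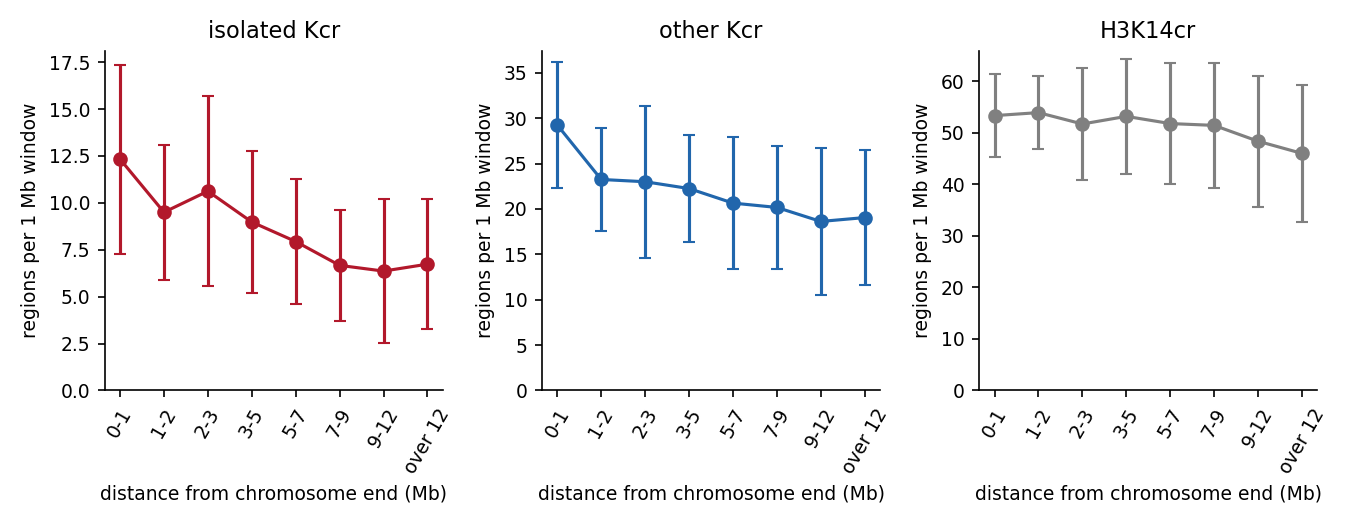
Regions per full 1 Mb window (y axes, mean with SD over windows) by distance from the nearer chromosome end (x axes, Mb, counted in full windows) for isolated Kcr, other Kcr and H3K14cr. Isolated Kcr averages 12.3 per window at the ends and 6.73 beyond 12 Mb, other Kcr averages 29.2 and 19.0, and H3K14cr averages 53.3 and 46.0.

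Across the genome, window counts of isolated Kcr had a weaker correlation with H3K14cr than those of the rest of the Kcr list. In 379 windows of 1 Mb (the last of each chromosome being shorter), the number of isolated regions and of H3K14cr regions had a Spearman's rho of 0.39 and a Pearson's r of 0.35. For the Kcr regions outside the set the values were 0.73 and 0.74, but most of those regions overlap H3K14cr by definition. Isolated regions were also fewer, with a median of 7 per full 1 Mb window against 20 for the other Kcr regions. Smaller counts carry more counting error, and how far this and the rule lower the coefficients was not tested. In windows of 500 kb the rho of isolated regions and H3K14cr was 0.19 (n = 752). It differed from chromosome to chromosome in 1 Mb windows, with -0.03 on chromosome 2 and 0.77 on chromosome 4. Isolated and other Kcr regions had a rho of 0.44. These coefficients describe neighbouring windows of 1 genome that share a pair of lists, and they carry no p-value. The mappable length of each window was not known.

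Windows rich in H3K14cr held on average more isolated Kcr regions than windows poor in it, and a slightly smaller share of isolated regions among all Kcr regions. The 122 windows with the fewest H3K14cr regions (15 to 45) held 6.22 ± 3.61 isolated regions (SD over windows), the middle 122 held 7.89 ± 3.91, and the 123 with the most (55 to 85) held 9.60 ± 4.10. The share of Kcr regions that were isolated ran the other way, at 29.8% (28.0 to 31.6%), 27.2% (25.7 to 28.6%) and 26.3% (25.0 to 27.6%). The rule contributes to this fall in share, because more H3K14cr regions leave less space more than 2000 bp from them.

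A full window held a median of 7 isolated regions, with quartiles at 5 and 11. The most, 27, lay on chromosome 3 between 35000001 and 36000000, beside 38 other Kcr regions and 61 H3K14cr regions. The last window of chromosome 2, which begins at 35000001 and is shorter than 1 Mb, held 24. On chromosome 2 at 2000001 to 3000000 and on chromosome 3 at 33000001 to 34000000 there were 20 each. On chromosome 11 the window of the longest run, 3000001 to 4000000, had 18 isolated regions and as many other Kcr regions.

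Isolated regions were missing altogether from 2 full windows, which lay on chromosome 5 at 12000001 to 13000000 and on chromosome 6 at 19000001 to 20000000. Neither was empty of crotonylation, since they held 11 and 13 other Kcr regions and 21 and 45 H3K14cr regions. The longest stretch without an isolated region, 1721 kb on chromosome 5 between 11661163 and 13382262, held 23 other Kcr regions and 57 H3K14cr regions. It was followed by 1337 kb on chromosome 12 (13566327 to 14903661), with 19 other Kcr and 63 H3K14cr regions. The next were 3 stretches of chromosome 4, of 1264, 1197 and 1114 kb, starting at 8072621, 6389053 and 15343501. The median spacing between consecutive isolated regions was 73.8 kb, with quartiles at 28.0 and 160.6 kb.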

How the data were processed

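Per the labels, 4 ChIP-seq libraries were made, 2 with each antibody, and the description of both replicates of a mark names the same list. The deposited lists hold chromosome, start and end of each region. The submitters' processing notes name Bowtie, a read aligner. Its version, the peak caller and threshold, the build and any pooling of replicates were not given in the sources used here. A gene table of another assembly was at hand, whose last gene on chromosome 9 ends at 27.5 Mb, against 22.9 Mb for the last region, and it was not used.

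Width was end minus start, and distances were taken edge to edge. The span of a chromosome was the last region end in either list, and windows were filled by region midpoints. Shares carry Wilson intervals, medians binomial intervals of their order statistics, and the density a Poisson interval. The procedures for distance, overlap, nearest neighbour, merging and the space far from H3K14cr were tested on simulated lists. Those for windows, gaps, runs and intervals were not. Python 3.11.15, pandas 2.3.3, NumPy 2.4.6 and SciPy 1.17.1 were used.

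Regions are named by a fixed rule: the 3 widest, narrowest, farthest from H3K14cr, farthest from other Kcr and nearest to the distance limit on each side, the longest runs and the richest windows. The closest pair, the runs and windows beyond the third, the regions just over the width limit, the empty windows and the longest stretches without a member were chosen after their values were seen. The members and all comparisons were chosen with earlier results of these data known. Alternatives changed the distance limit, the width limit, merging, the overlap that counts as shared and the window size, or kept only the wider 50% of each list.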

Additional observations from a re-analysis of the deposited data

How the results depend on the processing

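No paired analysis was possible because the replicates of a mark are joined in 1 list, which also kept single replicates from being left out. Of 45 alternative values, 25 lay inside the interval of the reported value or, for the number of isolated regions, within 1.5 times of it. No width difference, spacing difference or rho changed sign, and the counts, shares and ratios cannot do so. Intervals of the differences and of the density ratio covered counting error in the isolated set alone, with the other set held fixed. That of the reported spacing difference, -305 to 789 bp, included 0. A distance limit of 5000 bp gave 1990 isolated regions, 18.2% of the Kcr list, a density ratio of 0.217 and a spacing difference of 1816 bp. With 1000 bp the share was 31.0% and the ratio 0.109. Without a width limit the share was 28.6%, the width difference -183 bp and the ratio 0.158, and with 1500 bp they were 24.4%, -95.5 bp and 0.135. The wider 50% of each list gave 46.9%, -197 bp, a ratio of 0.185 and a spacing difference of 1145 bp. Counting an overlap of 50% of the Kcr region, with no distance limit, gave 35.1% and a ratio of 0.0588. These limits set which regions and bases enter, so shares and ratios move with them by construction. In 500 kb windows, whose outermost ones cover 3.22% of the span in place of 6.43%, the share of isolated regions in them was 5.55%, against 9.90% in 1 Mb windows, and rho with H3K14cr was 0.19. In full 1 Mb windows only, an alternative chosen after seeing the data, rho was 0.37. The unknown depth limits any statement that H3K14cr is lacking at these regions.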
